A study of Ananas comosus with 3 samples.

Results

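Fruit bromelains and other cysteine proteases of pineapple (Ananas comosus) were followed in fruit flesh from the mature green stage (pine3) to the mature yellow stage (pine9). The fruits were field grown, total RNA was extracted with Trizol, and labeled cDNA of both stages was hybridized together to each of 3 slides that carry PCR-amplified cDNA clones from fruit, root and nematode-infected root libraries. On replicates 1 and 3 Cy3 labeled the mature yellow and Cy5 the mature green cDNA, with the reverse on replicate 2, so the dye exchange and replicate 2 cannot be told apart. The sources do not say which slides come from separate fruit harvests, so SDs and p-values here may cover only the spread between hybridizations. The members are the clones that the deposited descriptions call a bromelain, cysteine protease, cysteine proteinase or cystatin (15 clones in 9 contigs), the clones of 2 further contigs that the study names as a fruit bromelain (Ac-122) and an OTU-like cysteine protease (Ac-756), and the clones that were later given any of these contig numbers. Contigs are written with the study's prefix for pineapple genes, so contig 122's values stand under Ac-122, contig 3033's under Ac-3033 and contig 756's under Ac-756. The members number 34 clones in 11 contigs, of 9278 clones and 7773 features on the array, where a feature is a contig or a clone without a contig number. No description contained the word cystatin. The descriptions used here call the 4 clones of Ac-122 unsequenced and a clone of Ac-756 an unknown protein, so both names were taken from the study.

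Bromelains are cysteine proteases of the papain family, made as precursors with a signal peptide and an inhibitory propeptide that is cut off to give the active enzyme. Their active site cysteine attacks the peptide bond, and small proteins such as cystatins can occupy that site and block it. Fruit bromelain is an abundant protein of pineapple flesh and accounts for most of its proteolytic activity, which is why the fruit tenderizes meat and prevents gelatin from setting. Members of this family are close relatives of each other, and a spotted cDNA clone can bind labeled cDNA from more than one of them. How far that occurred here was not tested.

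A point of the design bears on every count below. According to the methods, clones that had not been sequenced were sequenced only after they passed a filter and differed by at least 1.5-fold on these slides. Of the 34 member clones, 18 received their contig number in this way and 16 were numbered earlier. All 18 newly numbered clones differed by 1.5-fold or more, as against 7 of the 16 earlier ones. The size of the difference of the newly numbered clones was thus part of how they were picked, in either direction, and gives no independent evidence.

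The slides held 18556 clone spots each, with every clone in duplicate. Of these, the scanner software marked 288, 283 and 428 as abnormal on replicates 1, 2 and 3, and they were left out. Of the member clones, 29 of 34 lay above the blank spots by 2 robust SD in at least one stage on all of their slides. Duplicate spots of the member clones differed by a median of 0.14 on the log2 scale. Across all features the log2 ratios of replicates 1 and 2, 1 and 3, and 2 and 3 correlated with r of 0.41, 0.67 and 0.37. With 3 slides, an exact permutation of the signs of a single value cannot give a two-sided p under 0.25, so calls rest on limma's moderated test over all features, with Benjamini-Hochberg adjustment, with a limit of 0.05 for the adjusted p and a difference of at least 1.5-fold.

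Ac-3033, a fruit bromelain, was the only member contig called, and it was lower in mature yellow fruit by 11.9-fold. Fruit bromelain Ac-122 had a larger mean difference, 21.6-fold lower in mature yellow fruit, but spread more between the slides and did not pass the test. The remaining fruit bromelain contigs, Ac-123 and Ac-2985, gave weak signals and differed by less than 1.5-fold. Cysteine proteinase Ac-1102 and Ac-2360 lay on the opposite side, brighter in mature yellow fruit by 2.24-fold and 2.48-fold without passing the test. In the contig fit 1 of the 11 member contigs was called lower, where 0.0772% of all features were called lower, and none was called higher, where 0.0515% of all features were (0.129% either way). An unadjusted limma p under 0.05 was reached by 5 member contigs, 3 lower (Ac-122, Ac-3033 and Ac-756) and 2 higher (Ac-1102 and Ac-2360), against 8.95% of all features. The median log2 ratio over the 11 contigs was -0.038, beside 0.0075 over all features, since 6 of the 11 differed by less than 1.5-fold. At least 1.5-fold without regard to the test was reached by 3 member contigs lower and 2 higher, beside 2.06% and 3.18% of all features. These counts are partly built in. All 4 clones of Ac-122, 9 of 10 of Ac-3033, 1 of 2 of Ac-756 and 4 of 8 of Ac-1102 were picked for such a difference. Without the new contig numbers Ac-122 had no value and Ac-756 stood at -0.11. An unadjusted limma p under 0.05 with 1.5-fold then held for 3 of 10 member contigs and 583 of 8176 features. That background is not free of the picking either. The 413 newly numbered clones of the array count there as features of their own, and in the main fit the same limits held for 288 of 7773 features. In a bulk tissue such as flesh, fewer cells of a type and less RNA per cell cannot be told apart.

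**Figure D1:**
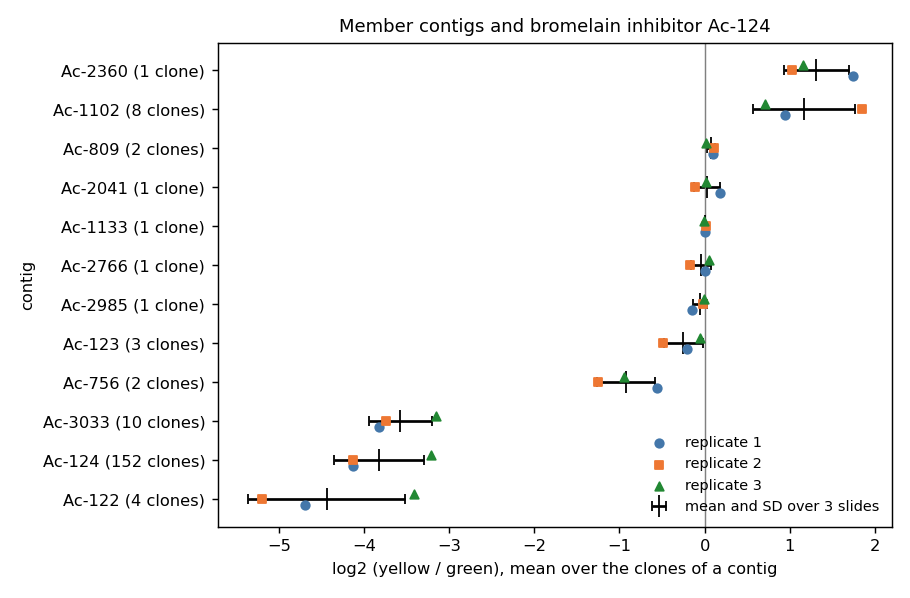
Log2 ratio of mature yellow over mature green for the 11 member contigs and the bromelain inhibitor Ac-124, each the mean over the clones of the contig. Points are the 3 slides, the vertical mark and bar the mean and SD over slides; Ac-122, Ac-124 and Ac-3033 lie between -3.15 and -5.20 on every slide, and Ac-1102 and Ac-2360 between 0.71 and 1.85.

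Fruit bromelain Ac-122 was represented by 4 clones, all newly numbered. Its log2 ratio of mature yellow over mature green, averaged over the 4 clones, was -4.69 on replicate 1, -5.20 on replicate 2 and -3.42 on replicate 3. The mean was -4.44 ± 0.92 (SD, n = 3 slides), and limma gave an adjusted p of 0.121. Every slide showed mature yellow lower, with the smallest difference on replicate 3. The size of the difference moved with the background correction, from -4.44 to -5.49 when the local background was subtracted without an offset, and Ac-122 was then called with limma's adjusted p of 0.0102. Without any background correction it stood at -3.33 with 0.0555.

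The 4 clones of Ac-122 gave much the same picture, with mean log2 ratios from -4.17 to -4.81. Clone JBW008E11 had -5.03, -5.63 and -3.78 on the 3 slides, and clone JBW013G04 had -4.58, -5.22 and -3.96. Both were called lower in the fit over single clones, with limma's adjusted p of 0.0333 and 0.0167. Calls in that fit and in the contig fit are not on equal terms. The unadjusted limma p was 0.000616 for JBW008E11 and 0.000585 for Ac-122 as a contig, which was not called. In the clone fit 222 clones were called, 114 of them picked clones of the bromelain inhibitor Ac-124, beside 10 features in the contig fit. Clones JBW006A11 and JBW011F08 had means of -4.17 ± 1.08 and -4.17 ± 1.07 (SD, n = 3 slides) and missed the threshold at 0.0603 and 0.0599. These were the clones of Ac-122 with the smallest differences on replicate 3, at -2.94 and -2.99.

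The brightness behind these ratios came almost wholly from the mature green stage. Before normalization, clone JBW013G04 stood 13618, 60158 and 3858 intensity units above its local background in mature green fruit on replicates 1, 2 and 3, and 449, 769 and 201 units in mature yellow fruit. Clone JBW006A11 stood at 11769, 22363 and 695 units in mature green fruit and at 365, 355 and 37.2 units in mature yellow fruit. No mature yellow value of the 4 clones overlapped a mature green value of the same slide. Each of the 4 was lower in mature yellow fruit on all 3 slides, as were 18.3% of all clones measured on 3 slides. As all 4 were picked for a difference on these slides, that separation is no independent evidence. The mature yellow signals were still above the blank spots on every slide, whose limits in that channel were 9.90, 5.93 and 2.43 units. Both stages thus gave measured signals, but the log2 ratios also contain the offset of 50 units added in the background correction. That offset draws the ratios of dim spots toward 0. On replicate 3 the mature yellow signals of JBW006A11 and JBW011F08 were 37.2 and 51.7 units. Before normalization and without the offset, mature green over mature yellow was 18.7 and 15.3 there, beside 19.1 and 19.2 for JBW008E11 and JBW013G04. How far the offset set the spread of the log2 ratios on that slide was not tested.

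**Figure D2:**
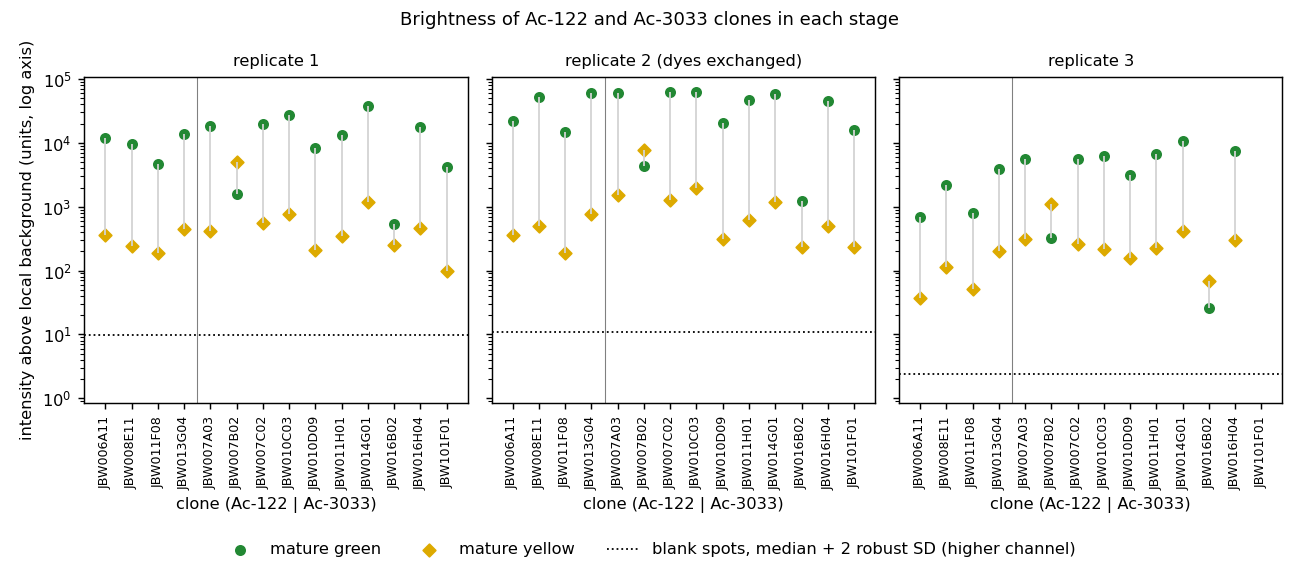
Intensity above local background, before normalization, of each clone of Ac-122 (left of the vertical line) and Ac-3033 (right of it) in mature green and mature yellow fruit, one panel per slide, on a log axis. The dotted line is the limit set by the blank spots; mature green exceeds mature yellow for every clone except JBW007B02 and, on replicate 3, JBW016B02, and JBW101F01 has no value on replicate 3.

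Fruit bromelain Ac-3033 was represented by 10 clones, 9 of them newly numbered and 1 described as a fruit bromelain from the start. Over the 10 clones its log2 ratio was -3.82 on replicate 1, -3.74 on replicate 2 and -3.15 on replicate 3. The mean was -3.57 ± 0.37 (SD, n = 3 slides), and limma gave an adjusted p of 0.0460. The slides lay closer together than those of Ac-122. Because 9 of the 10 clones had been picked for a difference, the fit was also run without the new contig numbers. This leaves the single earlier clone, which has no value on replicate 3. Ac-3033 then stood at -4.98 on 2 slides with limma's adjusted p of 0.0118. In that fit each picked clone is a feature of its own, and 227 of 8176 features were called, beside 10 of 7773 in the main fit. The 2 adjusted p-values are therefore not on equal terms. The contig did not pass the threshold without replicate 1 (-3.45, limma's adjusted p = 0.775) or without replicate 2 (-3.49, 0.0713). Without background correction it stood at -2.83, still called, with limma's adjusted p of 0.0147.

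The mean of Ac-3033 covers clones that moved in opposite directions. In the fit over single clones 8 of its 10 clones were called lower, with mean log2 ratios from -4.33 to -4.98, and 1 was called higher. Of all clones on the array, 1.89% were called lower and 0.507% higher in that fit, 2.39% in all. With the median over the clones in place of the mean, the contig stood at -4.50 and limma's adjusted p at 0.0603, so the average of 11.9-fold lies nearer to no difference than the values of its 8 called clones.

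Clone JBW101F01 is the clone of Ac-3033 that had been described as a fruit bromelain before these hybridizations. Its log2 ratio was -5.02 on replicate 1 and -4.94 on replicate 2, and its spots on replicate 3 were marked abnormal. The mean of -4.98 ± 0.059 (SD, n = 2 slides) was a fall of 31.5-fold, with limma's adjusted p of 0.0135. It stood at 4263 and 16053 intensity units in mature green fruit and at 97.0 and 234 units in mature yellow fruit on replicates 1 and 2. This clone was not picked for its difference, and it was the single one of the 16 earlier member clones that was called in the fit over clones.

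Among the newly numbered clones of Ac-3033, JBW014G01 gave the most even values. Its log2 ratios were -4.40, -4.55 and -4.41, with a mean of -4.45 ± 0.085 (SD, n = 3 slides) and limma's adjusted p of 0.0103. In mature green fruit it stood at 37404, 57359 and 10656 intensity units, and in mature yellow fruit at 1169, 1173 and 411 units. Clone JBW016H04 had -4.88, -5.38 and -4.38 and a mean of -4.88 ± 0.50 (SD, n = 3 slides), 29.4-fold lower in mature yellow fruit. The other 5 called clones, JBW007A03, JBW007C02, JBW010C03, JBW010D09 and JBW011H01, had means from -4.33 to -4.85, with single slides from -3.89 to -5.15. None of the 7 newly numbered clones of Ac-3033 called lower had a slide closer to 0 than -3.89. On replicate 2, 4 spots of member clones reached the ceiling of the scanner, and leaving out saturated spots left Ac-3033 at -3.57 and Ac-122 at -4.45. That step removes only spots at the ceiling itself. Clones JBW007A03, JBW007C02 and JBW010C03 stood at 61368, 61731 and 62802 units in mature green fruit on replicate 2. Whether signals just below the ceiling were compressed was not tested.

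Clone JBW007B02 carries the same contig number and behaved otherwise. Its log2 ratios were 1.82, 1.68 and 1.27, with a mean of 1.59 ± 0.28 (SD, n = 3 slides), 3.01-fold higher in mature yellow fruit (limma's adjusted p = 0.0319). It stood at 5005, 7628 and 1087 intensity units in mature yellow fruit and at 1557, 4373 and 322 units in mature green fruit, so mature yellow was the brighter stage on all 3 slides. Its duplicate spots differed by no more than 0.12 on the log2 scale on any slide. Whether this clone holds the same cDNA as the others of Ac-3033 was not tested.

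Clone JBW016B02 was the remaining clone of Ac-3033, and its slides disagreed. Its log2 ratios were -1.39, -1.50 and 0.12, so that replicate 3 fell on the other side of 0, and the mean of -0.92 ± 0.90 (SD, n = 3 slides) was not called. Its mature green signal was 542, 1216 and 26.1 intensity units, and its mature yellow signal 251, 237 and 67.8 units. No other clone of Ac-122 and Ac-3033 changed direction between slides. Of the 14 clones of the 2 contigs, 12 had a mean log2 ratio of -4 or lower.

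Ac-123 and Ac-2985, the other fruit bromelains, were represented only by earlier numbered clones, and most of these barely rose above the blank spots. Clone JBW098F03 of Ac-123 stood at 19.5, 271 and 16.4 intensity units in mature green fruit and at -3.5, 5.0 and 6.4 units in mature yellow fruit, where a negative value means a spot dimmer than its surroundings. It was above the blank limit on all 3 slides in mature green fruit and on 1 slide in mature yellow fruit. The log2 ratios were -0.36, -1.44 and -0.13, with a mean of -0.64 ± 0.70 (SD, n = 3 slides) that was not called. Clones JBW100A04 and JBW101C11 of Ac-123 had means of -0.037 and -0.067, and both were at the level of the blank spots in mature yellow fruit on all slides. Ac-123 as a whole stood at -0.25 ± 0.23 (SD, n = 3 slides). Ac-2985, with the single clone JBW100C05, stood at -0.059 ± 0.082 (SD, n = 3 slides) on signals of 10 units or less in mature green fruit. The offset of 50 units added in the background correction exceeds most of these signals and draws their ratios toward 0, so a difference of these 2 contigs was not detectable at this brightness. With plain subtraction they stood at -1.81 and -1.21, with limma's adjusted p of 0.186 and 0.408.

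**Figure D3:**
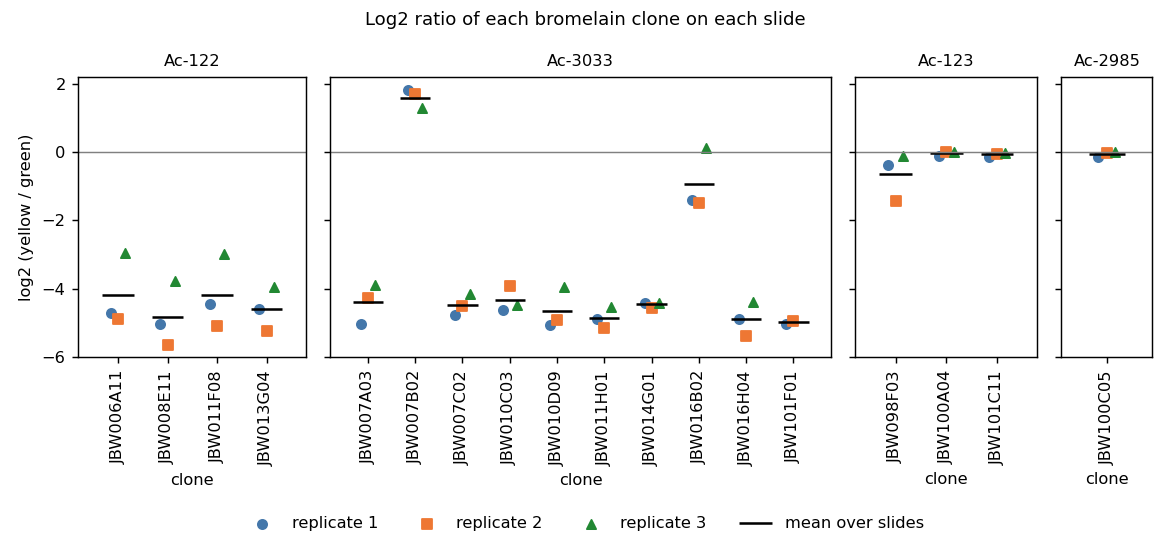
Log2 ratio of mature yellow over mature green for every clone of the 4 fruit bromelain contigs, with the 3 slides as points and their mean as a line. The 4 clones of Ac-122 and 8 of the 10 clones of Ac-3033 lie at means between -4.17 and -4.98, JBW007B02 lies at 1.59, and the clones of Ac-123 and Ac-2985 lie between -0.64 and -0.037.

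Cysteine proteinase Ac-1102, described as a cysteine proteinase precursor, was brighter in mature yellow fruit on every slide and in each of its 8 clones. Over the clones its log2 ratio was 0.94 on replicate 1, 1.85 on replicate 2 and 0.71 on replicate 3. The mean of 1.16 ± 0.60 (SD, n = 3 slides) had limma's adjusted p of 0.385, so it was not called. Replicate 2, on which the dyes were exchanged, gave the largest ratio for all 8 clones. With a dye term in the fit, the contig stood at 1.33 with limma's adjusted p of 0.0448, and without replicate 2 at 0.82 with 0.0990. The dye term gives replicate 2 as much weight as replicates 1 and 3 together. That call therefore leans on the slide with the largest ratio, and dye and slide cannot be separated.

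For Ac-1102 part of the sequence evidence predates these slides, since 4 of its clones were numbered earlier and 4 newly. The earlier clones JBW051A01, JBW054F07, JBW082H07 and JBW100B06 had mean log2 ratios of 1.27, 1.16, 0.74 and 0.89. The newly numbered clones JBW068H08, JBW110F01 and JBW113D07 had 0.81, 1.07 and 1.08. The values of the earlier and of these newly numbered clones overlapped. Clone JBW051A01 stood at 8554, 7623 and 1467 intensity units in mature yellow fruit against 4744, 4052 and 795 units in mature green fruit, and clone JBW113D07 at 3011, 9151 and 550 units against 2083, 3666 and 297 units.

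Clone JBW110H01, also newly numbered, had the highest mean of the 8 clones of Ac-1102 and was the only one of them called. Its log2 ratios were 2.45, 2.71 and 1.70, with a mean of 2.29 ± 0.53 (SD, n = 3 slides), 4.88-fold higher in mature yellow fruit (limma's adjusted p = 0.0475). Its mature green signal was low, at 28.0, 77.5 and 5.4 intensity units, beside 623, 743 and 370 units in mature yellow fruit. The 2 spots of this clone differed by 1.59 on the log2 scale on replicate 3, the widest gap among the clones of this contig. Because that green signal lies mostly below the offset of 50 units, the size of the ratio depends on the background correction, and over 15 alternatives it ran from 1.06 to 4.35 on the log2 scale, called in 11.

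Ac-2360, a cysteine proteinase 2 precursor, was represented by the earlier numbered clone JBW087C04. Its log2 ratio was 1.74 on replicate 1, 1.02 on replicate 2 and 1.16 on replicate 3, with a mean of 1.31 ± 0.38 (SD, n = 3 slides). Limma's adjusted p was 0.172 in the contig fit and 0.0825 in the fit over clones, so it was not called in either. With the 2xSD spots alone it was called, at the same 1.31 with limma's adjusted p of 0.0219, in a fit over 2127 features in place of 7773. It stood at 3415, 3964 and 452 intensity units in mature yellow fruit and at 966, 3410 and 97.7 units in mature green fruit. Mature yellow was brighter on each slide, although on replicate 2 the raw signals of the stages lay close together.

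**Figure D4:**
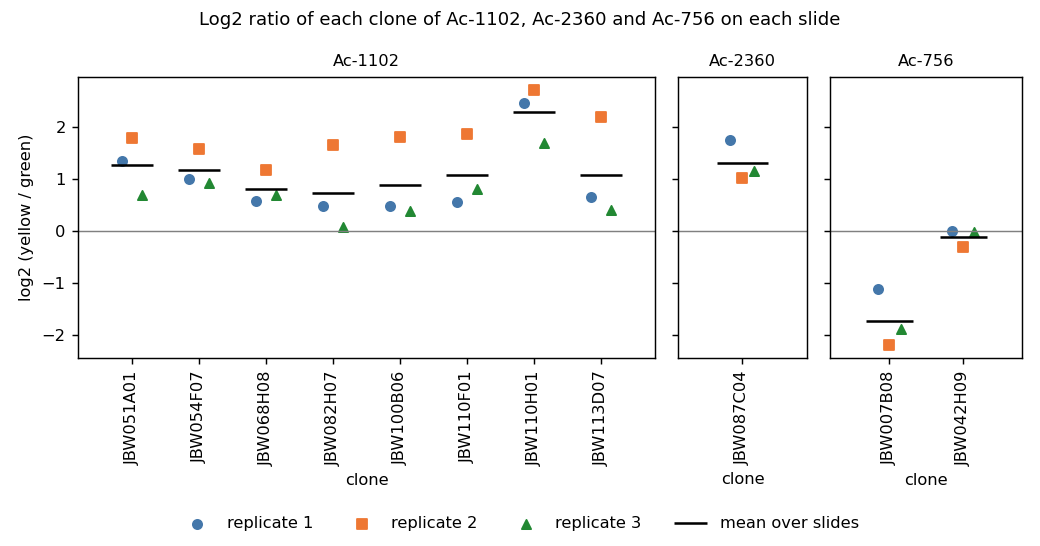
Log2 ratio of mature yellow over mature green for every clone of Ac-1102, Ac-2360 and Ac-756, with the 3 slides as points and their mean as a line. All 8 clones of Ac-1102 and the clone of Ac-2360 lie above 0 on every slide, and the 2 clones of Ac-756 differ from each other, at means of -1.73 and -0.11.

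Ac-2041 and Ac-2766 showed no difference that stood out from the slide spread. Ac-2041 carries the name mir3, first given to a maize cysteine proteinase, and its log2 ratios were 0.18, -0.12 and 0.016 on signals of at most 83.5 intensity units. Ac-2766 is described as cathepsin B-like, after the papain family protease that can also trim dipeptides from protein ends, and its log2 ratios were 0.00085, -0.17 and 0.056 on signals of at most 184 units. Neither kept one direction over the slides.

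Ac-1133 and Ac-809 carry descriptions of nematode cysteine proteinases, the second cathepsin L-like, and part of the array was made from nematode-infected roots. Ac-1133 stood between -11.0 and 3.5 intensity units in both stages and below the blank limit on every slide. Clone JBW043G10 of Ac-809 lay above the blank limit in both stages on all 3 slides, at up to 138 units, and clone JBW089H02 on 2 slides in each stage, with clone means of 0.032 and 0.12 on the log2 scale. The larger mean difference of these contigs was 1.05-fold.

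Ac-756 was named by the study as an OTU-like cysteine protease, a type of enzyme that removes ubiquitin from proteins. Its log2 ratio was -0.56 on replicate 1, -1.25 on replicate 2 and -0.95 on replicate 3, with a mean of -0.92 ± 0.34 (SD, n = 3 slides), 1.89-fold lower in mature yellow fruit, and limma's adjusted p of 0.264. The 2 clones did not share this difference. The newly numbered clone JBW007B08 had -1.12, -2.19 and -1.89, with a mean of -1.73 ± 0.55 (SD, n = 3 slides), and stood at 875, 3947 and 408 intensity units in mature green fruit and at 484, 479 and 91.0 units in mature yellow fruit. The earlier clone JBW042H09, the one described as an unknown protein, had -0.0071, -0.31 and -0.010 and stood at no more than 176 units. Taking the contig numbers of the full files alone, which leaves only JBW042H09, put Ac-756 at -0.11.

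Over single clones, 10 of the 34 member clones were called lower and 2 higher, as against 1.89% and 0.507% of all clones. Of these, 9 of those lower and both of those higher were newly numbered. In all, 17 member clones were lower on all of their slides and 10 were higher on all of them, where 18.3% and 19.3% of all clones measured on 3 slides were. The called clones came from Ac-122, Ac-3033 and Ac-1102 only.

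The bromelain inhibitor Ac-124 is no protease, and its values are given beside the bromelains because of its name. The deposited files give that name to 1 of its clones, JBW016D10. The study describes it as a homolog of a non-cystatin inhibitor precursor without an inhibitory effect on fruit bromelain. It was represented by 152 clones, more than any member contig, all newly numbered and thus all picked for a difference on these slides. Over the clones its log2 ratio was -4.13 on replicate 1, -4.13 on replicate 2 and -3.21 on replicate 3, with a mean of -3.82 ± 0.53 (SD, n = 3 slides), 14.1-fold lower in mature yellow fruit. Limma's adjusted p was 0.0725, short of the threshold, and 0.0450 without replicate 3, where the value was -4.13. In the fit over clones 114 of the 152 were called lower and none higher, where 1.89% and 0.507% of all clones were. That gap follows in part from how the clones were picked. Of the 175 clones called lower on the whole array, 114 belonged to Ac-124, 10 to Ac-122 and Ac-3033, and 51 to everything else.

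The clones of Ac-124 were not uniform. Their mean log2 ratios ran from -5.17 to -0.58 with a median of -4.53, 96 of them at -4 or lower and 21 above -2. The median clone stood at 7795, 25021 and 2778 intensity units in mature green fruit on the 3 slides and at 221, 447 and 153 units in mature yellow fruit. Across the 152 clones the log2 ratio and the log2 of the mature green signal correlated with r = -0.88, brighter clones showing the larger difference. That correlation is a description only, because the mature green signal enters both measures, the clones share their slides, and the offset draws the ratios of dim clones toward 0. Most clones of Ac-122 and Ac-3033 fell within the main group of Ac-124 clones, below -4.

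**Figure D5:**
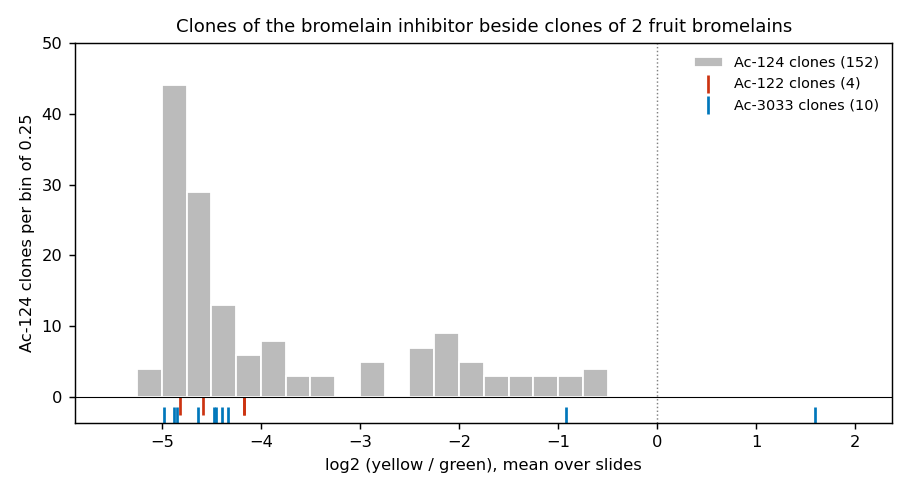
Number of clones of the bromelain inhibitor Ac-124 by mean log2 ratio of mature yellow over mature green, in bins of 0.25, with each clone of Ac-122 and Ac-3033 as a tick below the axis. Of the 152 inhibitor clones 96 lie at -4 or lower, as do 12 of the 14 bromelain clones, and JBW007B02 lies at 1.59.

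The features most like the 2 bromelains over the 3 slides were sought among 7607 features measured on all of them, by the Euclidean distance between their log2 ratios. Nearest to Ac-122 were clone JBW012E10 at a distance of 0.55, clone JBW017B03 at 0.77, Ac-191 at 0.95, the inhibitor Ac-124 at 1.23 and clone JBW016C12 at 2.33. Nearest to Ac-3033 were Ac-124 at 0.50, clone JBW017B03 at 1.25, clone JBW016C12 at 1.69, Ac-1885 at 1.74 and Ac-2705 at 1.83. The clones JBW012E10, JBW017B03 and JBW016C12 carry no contig number. Clone JBW012E10 had -5.08, -5.01 and -3.76, the same order of size as Ac-122, with a smaller difference on replicate 3 in both.

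Other peptidases and proteins that act on proteases were gathered by fixed words in their descriptions. None of the 5 other cysteine peptidase features was called by limma in the contig fit, and 1 had an unadjusted p under 0.05, beside 0.129% and 8.95% of all features. Only 2 of the 5 lay above the blank spots, so the missing calls say little about the others. The one past that p was Ac-1974, an asparaginyl endopeptidase, a vacuolar enzyme of the legumain family that activates other vacuolar proteins by cutting them, with 0.70, 1.20 and 0.78 and a mean of 0.90 ± 0.27 (SD, n = 3 slides), 1.86-fold brighter in mature yellow fruit at limma's adjusted p of 0.196. The other 4, among them 3 ubiquitin-specific proteases and a calpain-like protein, lay between -0.15 and 0.0033. Of 18 features for aspartic, serine and metallopeptidases none was called, 1 had an unadjusted p under 0.05 (Ac-990, an aspartic proteinase, at 0.35 ± 0.20, SD, n = 3 slides), 15 lay above the blank spots, and their median was 0.016. The serpin Ac-2511, the sole other peptidase inhibitor described, stood at 0.057. The 7 features for vacuolar sorting, protein disulfide isomerase and signal peptidase, which serve the route a bromelain precursor takes, had a median of 0.028 with none called, none at an unadjusted p under 0.05 and 6 above the blank spots. The medians lay close to that of all features, 0.0075. Of the chloroplast descriptions sought to check the green stage only a rubisco subunit binding protein, Ac-1053, was found, at 0.29 ± 0.22 (SD, n = 3 slides), so the stage labels could not be checked in this way.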

How the data were processed

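The authors deposited scanner intensities of spots and local background for both channels, edited in SoftWorx tracker but neither background corrected nor normalized (medians for replicates 1 and 2, means for replicate 3). For spots that passed their 2xSD test they also deposited mean intensities with new contig numbers. The deposited score per contig, a signed fold made in GeneSpring, and the deposited spot ratio score of the scanner software were not used for the main values. In R 4.3.3 with limma 3.58.1, intensities were corrected by normexp (offset 50) and normalized by loess within slides, with control, blank and abnormal spots at no weight. Abnormal spots were then left out, ratios turned to yellow over green, duplicate spots averaged, and clones averaged per contig. Features on at least 2 slides were fitted with an intercept and Benjamini-Hochberg adjustment, per contig (7773 features) and per clone (9275). A blank limit is the median plus 2 robust SD. The members and lists were chosen with earlier results of these data known. All clones and contigs that the member rule finds are named or counted, with the 5 nearest features to Ac-122 and Ac-3033. No genome position or sequence of the contigs was used. The procedure was tested on simulated data. Figures came from matplotlib 3.10.9 under Python 3.11.15. Alternatives covered background correction, normalization, filters, the unit of a feature, the fit, the deposited table and leaving out each replicate.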

Additional observations from a re-analysis of the deposited data

How the results depend on the processing

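Ac-122, Ac-3033, Ac-756, Ac-1102, Ac-2360 and Ac-124 kept their direction under every alternative that gave a value (Ac-122 and Ac-124 have none without the new contig numbers). Ac-122, not called in the report, was called by limma at -4.97 with an offset of 0, -5.49 with plain subtraction, -4.44 with the 2xSD spots or with trend and robust variances, -4.63 with a dye term and -4.40 with the deposited table. Ac-124 was likewise called at -4.29, -4.79, -3.87, -3.82, -3.90 and -4.25 under the same 6 alternatives, at -2.85 without background correction and at -3.82 over spots above the blank spots. Ac-2360 was called at 1.31 with the 2xSD spots and 2.45 with the deposited table, and Ac-1102 at 1.33 with a dye term and 2.04 with the deposited table. The dye term weights replicate 2 as much as replicates 1 and 3 together. The 2xSD spots and the deposited table gave only 2127 and 2222 features to adjust over, in place of 7773, so calls under them are not on equal terms with the main fit. Ac-3033 lost its call at -4.32 after scale normalization between slides, -4.50 with the median over clones and -3.57 with an ordinary test of the log2 ratios. Leaving out each replicate gave -4.95 to -4.05 for Ac-122, never called, -3.78 to -3.45 for Ac-3033, called only without replicate 3, and -4.13 to -3.67 for Ac-124, called only without replicate 3. Clone JBW007B02 stayed above 0 in 15 alternatives, from 1.10 to 1.84, and was called in 8. Ac-756 was called under none, between -1.52 and -0.11.

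The features called in the contig fit numbered 10, and 34 with an offset of 0, 59 with plain subtraction, 18 without background correction, 6 with median centring, 18 over spots above the blank spots, 110 with the 2xSD spots, 69 with a dye term, 28 with trend and robust variances, 227 without the new contig numbers, 138 with the deposited table and 222 with each clone a feature. It was 0 after scale normalization, with the median over clones and with the ordinary test, where limma's or that test's unadjusted p under 0.05 with 1.5-fold held for 170, 276 and 126 features, and 0 to 5 when a replicate was left out. The clones called numbered 222, and 397 with plain subtraction, 479 with the 2xSD spots, 371 with a dye term, 2 after scale normalization, 0 with the ordinary test (391 at an unadjusted p under 0.05 with 1.5-fold) and 0 to 263 when a replicate was left out. The member contigs called numbered 1, and 2 with an offset of 0, plain subtraction or trend and robust variances, 3 with the 2xSD spots or a dye term, 4 with the deposited table, 0 after scale normalization, with the median or with the ordinary test (2, 5 and 4 at an unadjusted limma or ordinary p under 0.05 with 1.5-fold), and 0 to 1 when a replicate was left out. The member clones called numbered 12, and 20 with the 2xSD spots, 0 after scale normalization or with the ordinary test (7 and 18 at an unadjusted limma or ordinary p under 0.05 with 1.5-fold) and 0 to 15 when a replicate was left out. Leaving out abnormal spots before the background correction was chosen after the data were seen and changed the call of no member contig.

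Differences near 0 changed sign, Ac-2041 to -0.012 with median centring, -0.0081 with a dye term and, when a replicate was left out, between -0.050 and 0.10, Ac-2766 to 0.24 with plain subtraction, 0.018 after scale normalization and, when a replicate was left out, between -0.085 and 0.029, and Ac-2985 to 0.020 without background correction. The causes were not tested. The ratios within slides already pair the stages, so the main fit is a paired one and leaves no further block to fit. The number of slides limits the precision, and signals near the blank spots leave Ac-123, Ac-2985 and Ac-1133 without a usable ratio.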

Other observations

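In the deposited table of processed values, whose direction was read from the scanner intensities of the same slides and whose scale and centring are not fully described, the log2 ratios of Ac-122 were -4.22, -4.76 and -4.21 on replicates 1, 2 and 3, close together. Those of Ac-3033 were spread much wider, at -5.37, -3.65 and -1.15, whereas the intensities of its clones gave -3.82, -3.74 and -3.15. Ac-756 stood at 0.061, -0.48 and -2.20 in that table, so its difference came almost wholly from replicate 3, while the intensities gave the largest difference on replicate 2. Ac-1102 stood at 2.16, 3.00 and 0.97 and Ac-2360 at 2.87, 2.30 and 2.18, above the values of 1.16 and 1.31 from the intensities in the mean and on the same side of 0. How the clones of a contig were combined in that table is not given in the sources used here.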
